A study of Mus musculus with 12 samples.

Results

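The genes of the histone H3.3 pathway, 10 in number, were followed in the 12 mRNA-Seq libraries of a mouse reprogramming course. They were chosen by name from a table of 24098 genes and comprise the 2 genes that encode H3.3 (H3f3a and H3f3b), the 4 genes of the HIRA complex (Hira, Ubn1, Ubn2 and Cabin1), the 2 ASF1 genes (Asf1a and Asf1b) and the genes of the second deposition pathway, Daxx and Atrx. Mouse embryonic fibroblasts (MEFs) with EGFP inserted behind the Oct4 coding sequence received pMXs retroviruses carrying Oct4, Sox2, Klf4 and c-Myc (OSKM). D0 is labelled as wild type at day 0, and D3 was taken without sorting at day 3. Sorting by the fibroblast surface protein Thy-1 gave D6T-, D6T+, D9T- and D9T+ at days 6 and 9, and sorting by SSEA-1, a glycan found on pluripotent cells, gave D12S+, D12S-, D16S+ and D16S- at days 12 and 16. The end points were induced pluripotent stem cells (iPSCs) and the embryonic stem cell line ESD3. No library carried a knockdown or deletion of a member.

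Each condition had 1 library, and the number of cultures or embryos behind it was not given in the sources used here. No test was therefore possible, and every difference was described without a replicate check. MEFs were grown in serum medium. The labels place reprogramming cells, iPSCs and ESD3 in a medium with serum replacement, LIF, ascorbic acid and CHIR99021, while the methods of the study also name other media for them, so day and medium cannot be told apart in a comparison with D0. The retroviral factors were present in all libraries from day 3 to day 16, sorted fractions included. In bulk RNA, fewer cells with a transcript and less transcript per cell cannot be told apart.

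Histone H3.3 is the H3 variant that is made throughout the cell cycle and placed into chromatin without need of DNA replication. Canonical H3 is made during DNA replication. HIRA, together with the ubinuclein (UBN1 or UBN2) and CABIN1 subunits, places H3.3 at active genes and promoters, and receives H3-H4 dimers from ASF1. DAXX binds H3.3 and, with the chromatin remodeller ATRX, places it at telomeres, pericentric heterochromatin and other silent repeats. Both pathways have been described in mouse pluripotent cells.

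H3f3a and H3f3b encode one protein with different codons, so that their mRNAs can be told apart by sequence. Their coding sequences, each of 411 bases and 137 codons, differed at 95 bases in 83 codons, 81 of those bases lay at the third position, and 0 differing codons encoded another residue. The longest stretch that both shared was 23 bases. The opening 90 coding bases are shown 5′ to 3′ because they carry this difference, with capitals at the 20 bases where H3f3a and H3f3b differ. The third sequence is that of H3f3c, an annotated pseudogene (mm9, chr2:119491362-119491772, minus strand), with capitals where it differs from H3f3a.
H3f3a: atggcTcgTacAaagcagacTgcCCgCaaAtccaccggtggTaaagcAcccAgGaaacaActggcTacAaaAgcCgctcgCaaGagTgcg
H3f3b: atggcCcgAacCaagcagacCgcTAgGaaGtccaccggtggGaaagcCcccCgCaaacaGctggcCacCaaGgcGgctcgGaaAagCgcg
H3f3c: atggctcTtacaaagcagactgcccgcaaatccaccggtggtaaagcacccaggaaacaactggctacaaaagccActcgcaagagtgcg
H3f3c matched 99.0% of the H3f3a coding sequence, H3f3a-ps2 on chromosome 16 matched 98.8% and H3f3a-ps1 on the X chromosome 98.3%. These copies bear on the measurement, since the authors discarded reads that mapped to more than 1 locus. All of the 888 bases of the H3f3a transcript used here had a copy of at least 98% identity over at least 50 bases elsewhere in the mm9 genome. For H3f3b, 44.96% of the transcript and 100% of its coding part had such a copy. The transcripts of Hira, Ubn1, Cabin1, Asf1a, Asf1b, Daxx and Atrx had 0 such bases, and Ubn2 had 4.09%, with 0 in its coding part. How many reads of H3f3a and H3f3b were lost in this way was not tested, so the level of one gene against the other carries this limit in every library.

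Expression is given as FPKM, a fragment count divided by transcript length and by the mapped fragments of the library, and so a level per length. Depth was estimated from the FPKM that 1 fragment gave in long genes and lay between 20.2 M fragments in D9T+ and 32.8 M in D6T- (M, 1e6). At this depth the counting error of a single member value was at most 2.67% for H3f3a, H3f3b, Hira, Ubn1, Cabin1 and Daxx, 7.22% for Ubn2, Asf1b and Atrx and 16.7% for Asf1a, which rested on 36.1 to 278 estimated fragments. The interval that cuffdiff attached to each value was far wider, with a median half-width of 96.0% of the FPKM and a lowest of 93.4%. The intervals of any 2 libraries were apart in 0 of 660 comparisons of a member. Intervals this wide overlap at every ratio seen between libraries, of which the widest was 7.79 (Atrx). The count of 0 was thus set by the interval model and says nothing of the members. The labels were checked with marker genes. The summed FPKM of 8 fibroblast markers was 7168 in D0 and 54.8 in iPSCs, that of 8 pluripotency markers was 2.29 in D0 and 3860 in iPSCs, and in D16S- these sums were 457 and 157. The sum of 5 epithelial markers was 61.4 in D0, 1405 in D16S-, 827 in D16S+ and 1553 in iPSCs, so D16S- also differed from D0 in these genes. Leukocyte, endothelial and keratinocyte markers summed to between 0.695 and 136 FPKM in every library, the highest being the leukocyte sum in D16S-, up to 2 of the 5 leukocyte markers were listed at 0 in a library, and their part in the members' values was not tested.

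H3f3b (chromosome 11, 115883226 to 115889276, minus strand, mm9) was listed above H3f3a (chromosome 1, 182730963 to 182744074, minus strand) in all 12 libraries. H3f3b stood at 306 FPKM in D0 and 154 in D3, at 179 in D6T+, 180 in D6T-, 217 in D9T+ and 191 in D9T-, at 154 in D12S-, 212 in D12S+, 169 in D16S- and 205 in D16S+, and at 232 in iPSCs and 275 in ESD3. The fibroblasts thus held the highest level and every other library a lower one, with the lowest levels in D3 and D12S-. H3f3a took another course, from 75.6 FPKM in D0 and 73.7 in D3 to 87.3 in D6T+, 108 in D6T-, 157 in D9T+ and 142 in D9T-, then 115 in D12S-, 120 in D12S+, 95.05 in D16S- and 85.0 in D16S+, with 114 in iPSCs and 121 in ESD3. Both fractions of day 9 were the highest, and D0 and D3 the lowest.

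The make-up of the H3.3 mRNA pool therefore differed between libraries. H3f3b supplied 80.2% of the summed FPKM in D0, 67.6% in D3 and 57.3% to 58.0% in D9T-, D12S- and D9T+, before 70.7% in D16S+, 67.1% in iPSCs and 69.5% in ESD3. The ratio of H3f3b to H3f3a was 4.05 in D0 and 1.34 in D9T-. The sum itself was 382 FPKM in D0, 228 in D3, 374 in D9T+ and 396 in ESD3, so the low sum of D3 went with a low H3f3b and a nearly level H3f3a. With the upper ends of the intervals in place of the FPKM, the median share of H3f3b over the libraries was 65.5%, as with the FPKM, and D0 kept the highest share (80.3%). The median half-width of the intervals was 96.0% of the FPKM, so the upper ends nearly repeat the FPKM on a larger scale. That likeness followed from the interval model and is no check of the shares. With the lower ends the median was 64.3%, but the order of libraries was not kept. There D0 stood at 75.3%, below D3 (79.6%) and D16S+ (76.7%), and ESD3 at 59.0%.

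**Figure D1:**
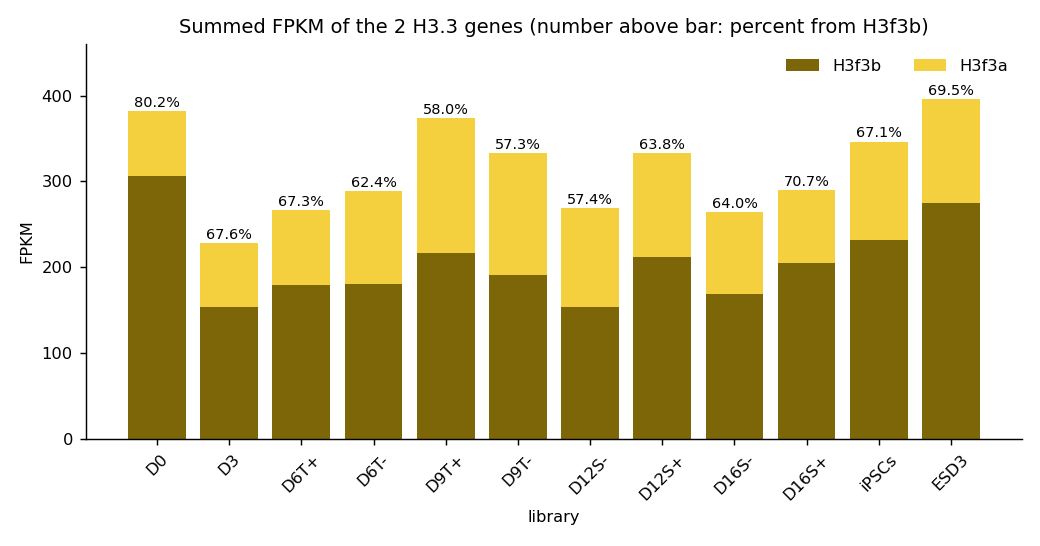
Stacked bars give the FPKM of H3f3b (dark) and H3f3a (light) in each of the 12 libraries, with the percent supplied by H3f3b above each bar. The share is highest in D0 at 80.2% and lowest in D9T- at 57.3%.

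In the upstream sequences of the 2 genes, taken from RefSeq on GRCm38.p6, H3f3b held 4 matches to CCAAT, a box known from many cell cycle and housekeeping promoters, and H3f3a held 1. The 250 bases before each start site are shown with CCAAT, or ATTGG on the other strand, in capitals. H3f3a lies at chr1:180813606-180813855 and H3f3b at chr11:116024505-116024754, both on the minus strand.
H3f3a: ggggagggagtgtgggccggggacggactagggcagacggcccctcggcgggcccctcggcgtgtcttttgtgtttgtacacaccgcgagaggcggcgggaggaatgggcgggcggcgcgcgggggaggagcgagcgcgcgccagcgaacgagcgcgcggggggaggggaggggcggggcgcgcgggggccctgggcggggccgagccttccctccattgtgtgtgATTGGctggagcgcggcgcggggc
H3f3b: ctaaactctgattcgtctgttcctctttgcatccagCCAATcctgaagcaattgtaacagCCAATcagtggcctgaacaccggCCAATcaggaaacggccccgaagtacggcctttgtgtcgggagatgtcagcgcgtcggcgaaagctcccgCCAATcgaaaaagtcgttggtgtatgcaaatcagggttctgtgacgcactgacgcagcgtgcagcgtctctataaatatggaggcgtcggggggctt
Of 32851 promoters in the table, 33.8% held at least 1 match and 0.840% at least 4. The count of 4 was singled out after the matches had been seen, and a match is a string of letters and not a measured site.

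Of the HIRA complex, Hira, Ubn1 and Cabin1 had narrow ranges and Ubn2 a wider one at a low level. Hira (chromosome 16, 18877130 to 18970402, plus strand) encodes the scaffold of the complex. It had 19.2 FPKM in D0, 24.3 in D3, 20.5 in D6T+, 33.8 in D6T-, 22.7 in D9T+ and 31.9 in D9T-. The other values were 19.6 in D12S-, 24.4 in D12S+, 19.3 in D16S-, 29.3 in D16S+, 32.5 in iPSCs and 24.3 in ESD3. The Thy-1- and SSEA-1+ fractions were higher than their counterparts on each of the 4 days, and D12S- and D16S- lay close to D0. Cabin1 (chromosome 10, 75108855 to 75227102, minus strand), named as a calcineurin-binding protein, lay between 18.3 FPKM in D3 and 24.8 in D12S+, a range of 0.42 in log2(FPKM + 1). Among 14178 genes kept for having 1 FPKM or more in at least 1 library, 0.247% showed a smaller range than Cabin1. Ubn1 (chromosome 16, 5050161 to 5086378, plus strand), one of the alternative ubinuclein subunits, lay between 10.2 FPKM in iPSCs and 16.5 in D9T-, and 3.70% of kept genes had a smaller range.

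Ubn2 (chromosome 6, 38383925 to 38474825, plus strand), the other ubinuclein, was the low member of the complex. It was listed at 0.626 FPKM in D0, 0.714 in ESD3, 1.03 in D6T+ and 1.04 in D9T+, against 1.77 in D6T-, 1.86 in D9T- and 2.00 in D16S+. D0 and ESD3 were the lowest of the 12 libraries. The highest and lowest library differed by a factor of 3.20 in FPKM and by 0.88 in log2(FPKM + 1), a scale that compresses low values. Per length, Ubn1 exceeded Ubn2 in every library.

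The ASF1 genes, which encode the chaperones that carry H3-H4 dimers to HIRA and to the replication-linked chaperone CAF-1, differed in level and in course. Asf1b (chromosome 8, 86479406 to 86494096, plus strand) had 36.6 FPKM in D0, 24.0 in D3, 23.1 in D6T+, 32.0 in D6T-, 10.1 in D9T+, 15.0 in D9T-, 15.7 in D12S-, 21.7 in D12S+, 9.84 in D16S-, 28.2 in D16S+, 39.5 in iPSCs and 57.5 in ESD3. The lowest values belonged to the Thy-1+ cells of day 9 and the SSEA-1- cells of day 16, and the highest to the pluripotent lines and D0. Asf1a (chromosome 10, 53316767 to 53329019, plus strand) had 1.24 FPKM in D0, 1.90 in D3, 1.93 in D6T+, 3.29 in D6T-, 0.933 in D9T+, 2.49 in D9T-, 0.736 in D12S-, 1.04 in D12S+, 0.926 in D16S-, 4.02 in D16S+, 3.73 in iPSCs and 1.69 in ESD3. Here D16S+ and iPSCs were highest, and D12S-, D16S- and D9T+ lowest. Asf1b supplied between 85.8% (D9T-) and 97.2% (ESD3) of the summed ASF1 FPKM.

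Asf1a overlaps Mcm9, which lies on the other strand, and the table gives both genes 1 locus. The labels name a stranded kit and the methods of the study a kit that does not mark strand, so reads of the overlap may not have been told apart. Mcm9, a helicase gene of DNA repair, was listed between 1.71 FPKM in D3 and 6.17 in iPSCs, and its Pearson correlation with Asf1a over the 12 libraries was 0.63, a value exceeded by 1028 kept genes.

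Asf1b is known as the proliferation-linked ASF1 gene, and 16 cell cycle genes were therefore set beside it. The median log2(FPKM + 1) of these genes was lowest in D9T+ (4.34) and D16S- (4.41), the libraries in which Asf1b was lowest as well. It was highest in D16S+ (6.18), where Asf1b was below D0 as deposited (-0.37) and level with it when every library was scaled to the same total FPKM (0.04). Over the 12 libraries the correlation of Asf1b with the 16 genes had a median of 0.77 and ran from 0.37 (Mki67) to 0.93 (Rrm2), against a median of 0.03 with all kept genes. For Asf1a the median was 0.55, and for Daxx 0.76. All points share libraries and depth, and these values are descriptions.

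**Figure D2:**
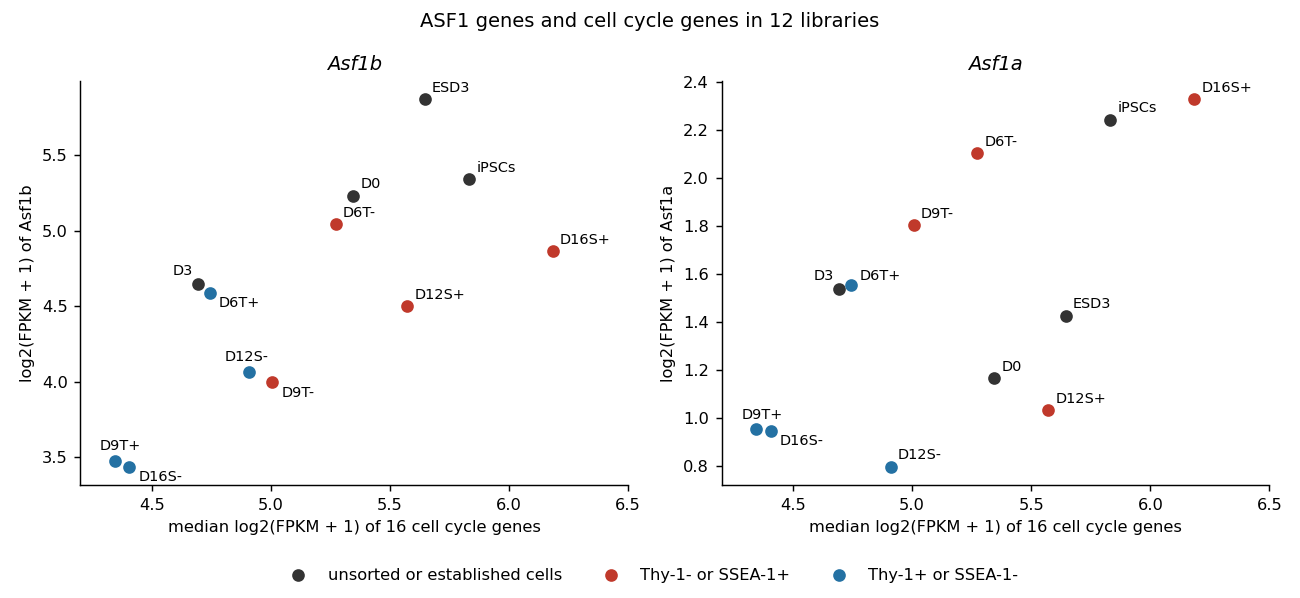
Each point is 1 library. The x axes give the median log2(FPKM + 1) of 16 cell cycle genes and the y axes the log2(FPKM + 1) of Asf1b (left) or Asf1a (right). D9T+ and D16S- sit at the lower left in both panels, and ESD3 and iPSCs are the highest for Asf1b while D16S+ and iPSCs are the highest for Asf1a.

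The 250 bases before the start sites of both ASF1 genes are shown because the genes differed in course. Capitals mark CCAAT on either strand and TTTGAA (or TTCAAA), the letters of a cell cycle homology region element. Asf1a lies at chr10:53596711-53596960 and Asf1b at chr8:83955444-83955693 (GRCm38.p6, plus strand).
Asf1a: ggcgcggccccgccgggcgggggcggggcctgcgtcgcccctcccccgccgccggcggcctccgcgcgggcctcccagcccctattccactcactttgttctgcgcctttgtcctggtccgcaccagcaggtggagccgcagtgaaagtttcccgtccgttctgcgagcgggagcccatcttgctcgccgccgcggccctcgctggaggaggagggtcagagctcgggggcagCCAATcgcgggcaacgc
Asf1b: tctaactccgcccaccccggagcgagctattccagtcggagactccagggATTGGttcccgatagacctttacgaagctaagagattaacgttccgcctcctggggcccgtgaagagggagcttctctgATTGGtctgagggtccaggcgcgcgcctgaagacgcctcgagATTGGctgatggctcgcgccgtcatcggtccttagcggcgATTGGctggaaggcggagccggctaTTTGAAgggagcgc
Asf1b held 4 matches to CCAAT and 1 to TTTGAA, and Asf1a held 1 and 0. TTTGAA occurred in 16.0% of all promoters in the table. Of the 14 cell cycle genes with a promoter in the table, 10 held CCAAT and 3 held TTTGAA in at least 1 of their promoters. These are counts per gene over all its promoters, whereas the shares of all promoters are per promoter, so they are not comparable. Among the members, H3f3b and Asf1b had 4 CCAAT matches, Atrx had 3, Cabin1 and Ubn1 had 2, H3f3a and Asf1a had 1, and Hira and Ubn2 had 0. Daxx, with 3 start sites in the table, had 1 match before the first and 0 before the others.

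Daxx (chromosome 17, 34046359 to 34052534, plus strand), the H3.3-specific chaperone of heterochromatin, had 32.2 FPKM in D0, 21.4 in D3, 21.3 in D6T+, 28.4 in D6T-, 26.0 in D9T+, 26.7 in D9T-, 27.7 in D12S-, 39.7 in D12S+, 31.4 in D16S-, 50.1 in D16S+, 74.1 in iPSCs and 46.8 in ESD3. The pluripotent lines and the late SSEA-1+ fractions were above D0, and the SSEA-1- fractions were below it as deposited but above it when every library was scaled to the same total FPKM. Over the 12 libraries Daxx was the member closest to the pluripotency markers, with a median correlation of 0.84 with the 8 genes, and its median with the 8 fibroblast markers was -0.76.

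Atrx (chromosome X, 102992954 to 103124736, minus strand), the SWI/SNF-type remodeller that works with DAXX, had 1.77 FPKM in D0, 2.37 in D3, 2.83 in D6T+, 3.72 in D6T-, 3.82 in D9T+, 4.78 in D9T-, 3.38 in D12S-, 5.98 in D12S+, 3.67 in D16S-, 9.17 in D16S+, 7.55 in iPSCs and 1.18 in ESD3. The successive Thy-1- and SSEA-1+ fractions stood one above the other up to D16S+, while the Thy-1+ and SSEA-1- fractions stayed between 2.83 and 3.82 FPKM. The embryonic stem cell library was the lowest of all. By this measure the highest and the lowest library differed by a factor of 7.79, the widest ratio among the 10 members.

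**Figure D3:**
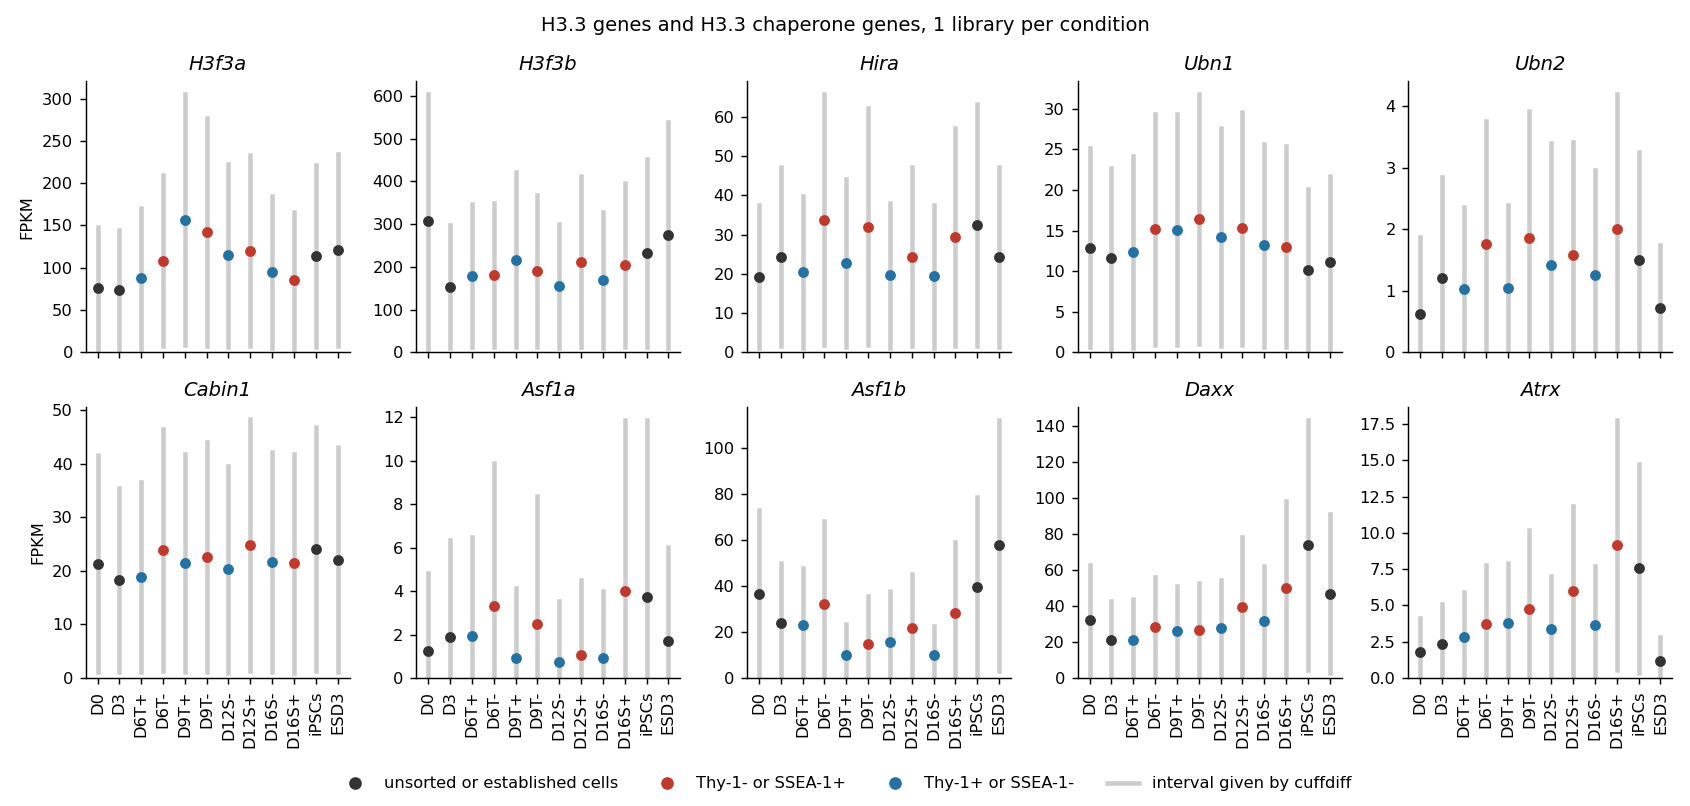
Points give the FPKM of each member in each of the 12 libraries (1 library per condition), coloured by fraction, and grey lines give the interval of cuffdiff, which is modelled. Atrx reaches 9.17 FPKM in D16S+ and stands at 1.18 in ESD3, whereas Cabin1 stays between 18.3 and 24.8.

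Across all libraries, 5 of the 10 members (H3f3a, Asf1a, Asf1b, Daxx and Atrx) spanned at least 2-fold on the log2(FPKM + 1) scale, where 81.2% of kept genes did. The median range was 1.03 for the members and 1.57 for all kept genes. All 10 members passed the filter on low values. Asf1b (2.43) and Atrx (2.22) spanned more than 4-fold.

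Against D0, the comparisons share 1 library, so a value of D0 that lies off moves all of them. In iPSCs 3 members were at least 2-fold higher, Atrx by 1.63 ± 0.06 (counting error of the log2 difference), Daxx by 1.18 ± 0.04 and Asf1a by 1.08 ± 0.13, beside 18.7% of kept genes. No member was 2-fold lower in iPSCs, beside 21.6% of kept genes. In D16S+ Atrx was higher by 1.88 ± 0.05 and Asf1a by 1.16 ± 0.13, beside 20.0% of kept genes, and in D12S+ Atrx was higher by 1.33 ± 0.06, beside 15.7%. In D9T- Atrx was higher by 1.06 ± 0.06, beside 12.6%, and in D9T+ H3f3a was higher by 1.04 ± 0.05, beside 10.0%. Asf1b was at least 2-fold lower in D9T+, D9T-, D12S- and D16S-, where it differed by -1.76, -1.24, -1.17 and -1.80 on the log2 scale, and 7.53%, 14.7%, 11.9% and 11.4% of kept genes were that much lower.

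No member was past 2-fold in D3, D6T+, D6T- or ESD3 against D0. The shares of kept genes that were higher and lower there were 5.76% and 8.67% in D3, 4.83% and 4.39% in D6T+, 9.42% and 14.5% in D6T-, and 20.7% and 21.9% in ESD3. H3f3b came closest in D3, where it differed by -0.99 with a counting error of 0.02. Over the 11 comparisons with D0, 8 differences of members were at least 2-fold higher and 4 lower. In single comparisons, 4.83% (D6T+) to 20.7% (ESD3) of kept genes were higher and 4.39% (D6T+) to 21.9% (ESD3) lower. When every library was scaled to the same total FPKM, the counts of members were 14 and 2. The shares of kept genes were then 6.26% (D6T+) to 28.2% (D16S+) higher and 2.69% (D6T+) to 19.6% (ESD3) lower. That scaling raised the median of all kept genes against D0, by 0.31 in D16S+ and by 0.16 in iPSCs, since D0 had the largest total.

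Between the sorted fractions of a day, the study set cells on the way to pluripotency (Thy-1- or SSEA-1+) against cells that were not. At day 6 and at day 12 all 10 members were higher in the former, with medians of 0.36 and 0.29 against 0.00 and -0.01 over all kept genes, although 0 passed 2-fold in either direction. At day 6, 2.93% of kept genes were at least 2-fold higher and 9.47% lower, and at day 12, 4.79% and 3.03%. The largest of these differences were those of Hira at day 6 (0.70 ± 0.04) and of Atrx at day 12 (0.67 ± 0.05), while H3f3b at day 6 differed by 0.01 ± 0.02, within its counting error. At day 9, 8 of 10 members were higher in D9T-, led by Asf1a at 0.85 ± 0.14, with a median of 0.19 against 0.02 over all kept genes. Of the members, 0 passed 2-fold at day 9, where 1.81% of kept genes were at least 2-fold higher and 6.45% lower.

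At day 16, Asf1b (1.43 ± 0.08), Asf1a (1.38 ± 0.13) and Atrx (1.12 ± 0.05) were at least 2-fold higher in D16S+, beside 11.8% of kept genes, and 0 members were as much lower, beside 15.2%. Daxx was higher by 0.66 ± 0.04 and Hira by 0.58 ± 0.04, whereas Ubn1 and Cabin1 differed by -0.02 each, which changed sign under both other scalings, and H3f3a by -0.16. Of the 16 cell cycle genes, 14 were at least 2-fold higher in D16S+, with a median of 1.97, and their part in the Asf1b difference was not tested. The estimated depth of D16S+ was 1.51 times that of D16S-.

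**Figure D4:**
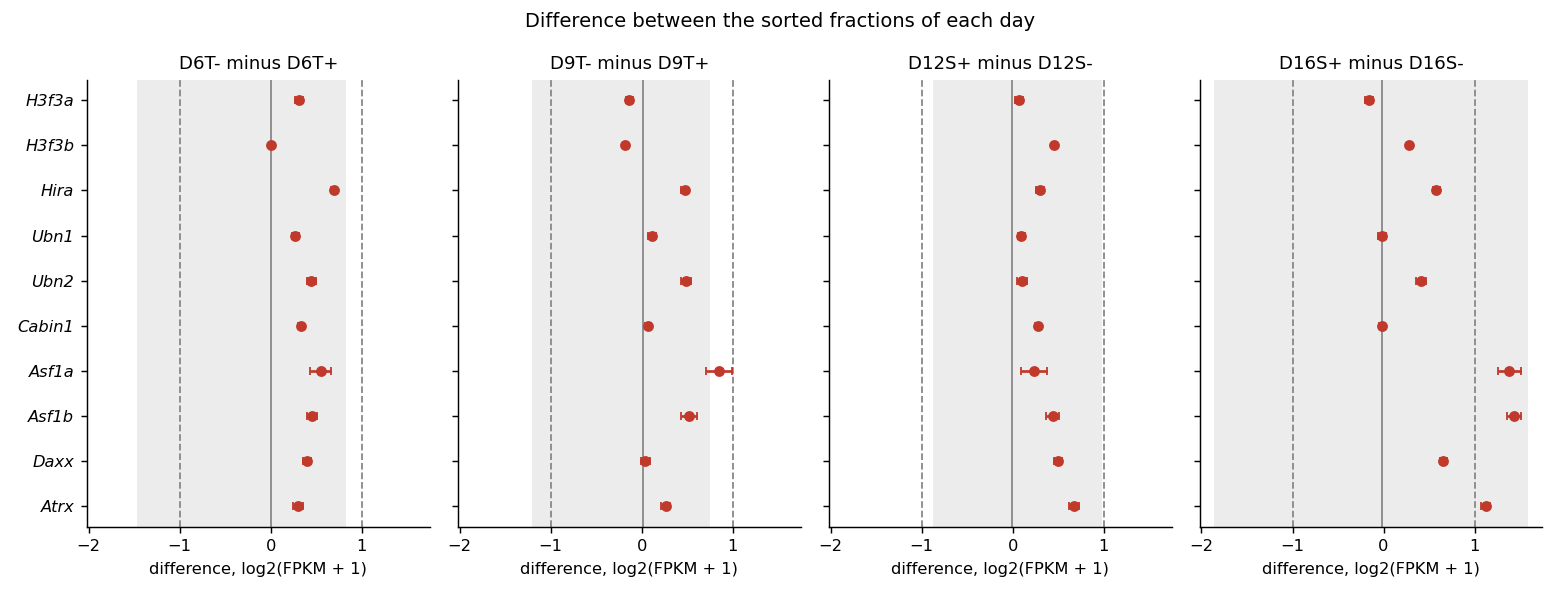
Points give the log2(FPKM + 1) difference of each member between the sorted fractions of days 6, 9, 12 and 16, and bars give the counting error (1 SE). The grey band spans the 5th to 95th percentile of all 14178 kept genes, the solid line is their median and the dashed lines mark 2-fold. At day 16 Asf1a, Asf1b and Atrx lie beyond the upper dashed line, and on days 6, 9 and 12 every member lies inside both dashed lines.

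Among the end points, Atrx stood out between iPSCs and ESD3. It was higher in iPSCs by 1.97 ± 0.06, the largest difference of a member, and 98.7% of kept genes had a lower difference. No other member reached 2-fold, and 6.79% of kept genes were at least 2-fold higher and 7.41% lower. Asf1a (0.82 ± 0.13), Daxx (0.65 ± 0.03), Ubn2 (0.55 ± 0.06) and Hira (0.41 ± 0.04) were higher in iPSCs, and Asf1b was lower (-0.53 ± 0.05). Between iPSCs and D16S+, where 4.38% of kept genes were at least 2-fold higher and 7.77% lower, 0 members passed, and Daxx differed most (0.56 ± 0.03).

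Transcript length moved with this comparison. Genes whose longest protein-coding transcript had 8 kb or more had a median difference of 0.21 between iPSCs and ESD3 (519 genes), and those under 2 kb had -0.09. The longest transcript of Atrx has 10269 bases and that of Ubn2 14644. Of the genes of 8 kb or more, 98.1% had a lower difference than Atrx. Against D0, genes of 8 kb or more had a higher median than those under 2 kb in every library but ESD3. The medians were 0.31 and -0.03 in D16S+, 0.26 and 0 in iPSCs, and -0.09 and 0.09 in ESD3. Between iPSCs and ESD3, genes on the X chromosome had a median of 0.01 (468 genes), and 97.6% of them had a lower difference than Atrx. In D16S+ their median was 0.27 against D0 and 0.17 against D16S-, where that of other chromosomes was 0.04 and -0.03. At least 2-fold higher there were 27.8% and 17.9% of X chromosome genes, against 19.7% and 11.6% of genes on other chromosomes. At least 2-fold lower were 18.2% and 10.5%, against 20.9% and 15.4%. Between the fractions of day 12 the medians of the X chromosome and of other chromosomes were both -0.01. The parts of length and of the X chromosome in the values of Atrx, and of length in those of Ubn2, were not tested further.

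**Figure D5:**
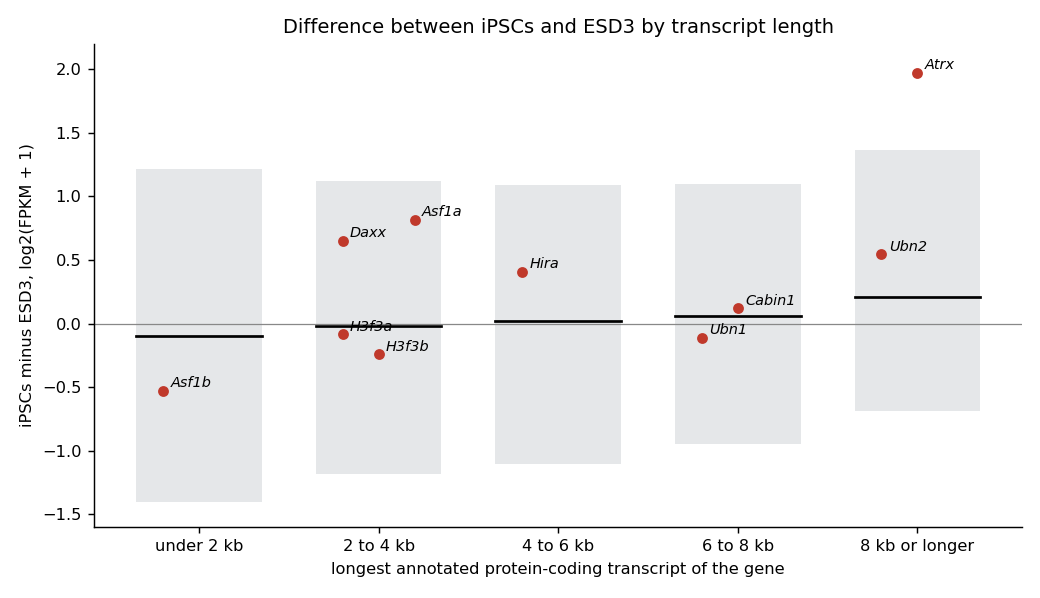
Points give the log2(FPKM + 1) difference of each member between iPSCs and ESD3, placed by the length of the longest annotated protein-coding transcript. Grey bars span the 5th to 95th percentile and black lines the median of all kept genes of that length. Atrx lies above its bar at 1.97, and the other 9 members lie inside theirs.

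Genes with related roles were taken as lists. Of 21 other H3-H4 chaperones and their partners, 10 were at least 2-fold higher in iPSCs than in D0 and 0 lower, beside 18.7% and 21.6% of kept genes, with a median of 0.99 against 0.03 for all kept genes. Hat1, the acetyltransferase of newly made histone H4, differed most, at 5.71 FPKM in D0 and 54.0 in iPSCs, and Nap1l4, a nucleosome assembly protein, was lowest, at 104 and 78.3 FPKM. Between D16S+ and D16S-, 10 of the 21 were at least 2-fold higher and 0 lower, namely the CAF-1 genes Chaf1a (1.09), Chaf1b (1.93) and their partners Rbbp4 (1.58) and Rbbp7 (1.09), the H3 chaperones Nasp (2.47) and Tonsl (1.72), the helicase and chaperone gene Mcm2 (2.01), Hat1 (2.90), Supt16 of the FACT complex (1.17) and nucleophosmin Npm1 (1.22). The median of the list was 0.80, that of the cell cycle genes 1.97 and that of all kept genes -0.02, and 11.8% of kept genes were at least 2-fold higher. In the same comparison the 4 members of the HIRA complex differed by between -0.02 (Cabin1) and 0.58 (Hira).

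Of 12 partners of DAXX and ATRX and genes of H3K9 methylation, 5 were at least 2-fold higher in iPSCs than in D0 and 2 lower, beside 18.7% and 21.6% of kept genes, with a median of 0.64. Trim28, the corepressor that recruits SETDB1, differed most, at 232 FPKM in D0 and 1065 in iPSCs, and Suv39h1, a pericentric H3K9 methyltransferase, was lower, at 41.5 in D0 and 10.9 in iPSCs. Between the fractions of day 16, Morc3 (1.27), Trim28 (1.69), Setdb1 (1.41), Suv39h2 (1.16), Cbx5 (1.56) and Cbx1 (2.06) were at least 2-fold higher in D16S+, beside 11.8% of kept genes, and 0 were lower, beside 15.2%. Setdb1 and Suv39h2 encode H3K9 methyltransferases, Cbx5 and Cbx1 encode HP1 proteins that bind H3K9 methylation, and Morc3 encodes a nuclear body ATPase.

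Of 11 methyltransferases of H3K4 and H3K36 and the reader of methylated H3.3K36, Zmynd11, 2 were at least 2-fold higher in iPSCs than in D0 and 2 lower, which is near the 18.7% and 21.6% of kept genes. Nsd1, a H3K36 methyltransferase, was highest (11.96 FPKM in D0 and 29.96 in iPSCs), and Whsc1, a related enzyme, was lowest (21.4 and 7.48). Of these 11 genes, 0 passed 2-fold between the fractions of day 16. Among the cell cycle genes, 7 of 16 were at least 2-fold higher in iPSCs than in D0 and 0 lower, again beside 18.7% and 21.6% of kept genes, with Mcm5, a subunit of the replicative helicase, at 48.2 and 175 FPKM and the transcription factor gene E2f1 at 52.5 and 27.2.

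Replication-dependent H3 mRNAs are known to lack a poly(A) tail for the most part, and the libraries were made from poly(A) RNA, so that FPKM is no measure of their amount. Of 13 other H3 genes, 9 passed the filter, 4 were at least 2-fold higher in iPSCs than in D0 and 1 lower, beside 18.7% and 21.6% of kept genes. Hist1h3c was listed at 0.572 FPKM in D0 and 4.43 in iPSCs, and Hist1h3d at 4.52 and 0.848. Cenpa, the polyadenylated centromeric H3 variant, was at 69.1 FPKM in D0, 35.6 in D16S- and 148 in D16S+, the one gene of this list past 2-fold between the fractions of day 16.

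Among the members, the most alike were Hira and Asf1a, with a Pearson correlation of 0.84 in log2(FPKM + 1) over the 12 libraries, and Ubn2 and Atrx, with 0.83. Of all kept genes, 67 were at or above Asf1a in likeness to Hira and 79 were at or above Atrx in likeness to Ubn2. The highest value of H3f3b was 0.57 (with Asf1b) and that of H3f3a 0.53 (with Cabin1). The 3 genes most like each variable member were Ctns, Col17a1 and Spata2 for H3f3a (0.89 to 0.90), Clpx, Ap1g1 and Ythdf2 for Asf1a (0.95 to 0.96), Fam83d, Spdl1 and E2f7 for Asf1b (0.96 to 0.97), Dnajc8, Cd2bp2 and Wibg for Daxx (0.97 to 0.98) and Jmjd1c, Baiap2l1 and Nipbl for Atrx (0.93 to 0.97). For Hira they were Myef2, Mphosph10 and Usp1 (0.92 to 0.96). With 12 libraries and 14178 genes, values of this size are a description of these libraries and no more.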

How the data were processed

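The authors selected mRNA, made TruSeq libraries, sequenced them on a HiSeq instrument, mapped reads to mm9 with STAR and removed reads with more than 2 mismatches or more than 1 locus. The deposited FPKM values and the ends of their intervals (95% by default) were made by the authors with cuffdiff. Software versions, the annotation of genes and how cuffdiff scaled the libraries are not given in the sources used here. The table held 12 further columns of status words, which were not used.

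Values were analysed as log2(FPKM + 1) with Python 3.11.15, pandas 2.3.3 and numpy 2.4.6, and fold changes on this scale are understated for low genes. Genes with at least 1 FPKM in at least 1 library were kept. Columns were matched to libraries by day and marker sign. A difference of 1 on this scale is 2-fold. Since each condition had 1 library, no p-value was computed. Depth was taken from the FPKM of 1 fragment in genes with a single transcript of at least 3000 bases, and gave the counting errors, which cover counting only. Positions are from GENCODE M1 (mm9), promoters from RefSeq (GRCm38.p6), and copies were sought with blastn 2.17.0. The functions were tested on simulated data. Named genes are the members, the genes of each list with the largest and smallest difference between iPSCs and D0 or past 2-fold between the fractions of day 16, and the 3 most alike genes of variable members and Hira. Members and lists were chosen with earlier results of these data known. Alternatives were the pseudocount, the filter, the fold threshold, the scaling and the interval ends.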

Additional observations from a re-analysis of the deposited data

How the results depend on the processing

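No paired analysis was possible because each condition had 1 library and no comparison came from a test. Replicates could not be left out for the same reason. Of 52 counts and shares recomputed under other settings, 34 stayed within 1.5 times the value or within 5 percentage points and 18 moved. Not all of them were free to move. Every member and list gene counted there passed the filter, so the counts without it had to be the same. The factors of the median of ratios lay between 1.00 (D16S+) and 1.02 (D9T-), so that scaling could hardly move a count or a single member. Of 92 recomputed differences of single members, 86 moved by less than 0.3 on the log2 scale. Of these differences 5 changed sign, the largest of them 0.08 in size as deposited, and none past 2-fold did. With a pseudocount of 0.1, the counts of member differences past 2-fold were 22 instead of 12 against D0 and 2 instead of 1 between end points, because low genes are compressed less. Of the 22, 18 were higher and 4 lower. The shares of kept genes rose as well, to 25.7% higher and 26.3% lower in iPSCs against D0, and to 11.7% and 12.6% in iPSCs against ESD3. With a fold threshold of 1.5 the counts were 9 members over the 12 libraries, 43 against D0 (30 higher and 13 lower), 7 between fractions and 3 between end points, and 16 other chaperones, 10 methyltransferase and reader genes and 12 cell cycle genes between iPSCs and D0. At that threshold 29.9% of kept genes were higher and 30.7% lower in iPSCs against D0. The shares were 22.6% and 25.7% between the fractions of day 16, and 15.5% and 17.0% between iPSCs and ESD3. With a threshold of 4 the counts were 2, 0, 0 and 0 for the members, and 3 other chaperones, 2 partners of DAXX and ATRX, 0 methyltransferase and reader genes and 0 cell cycle genes. Of kept genes, 6.19% were then higher and 9.20% lower in iPSCs against D0. At the lower interval ends, Asf1a was at 0 in all 12 libraries and Asf1b in 9, so the share of Asf1b was undefined in 9 and 100% by construction in 3, which says nothing of its stability. Scaling to the same total FPKM changed the sign of 18 of 170 member differences, none over 0.37 in size, among them Asf1b in D16S+ against D0 (-0.37 as deposited and 0.04 scaled), and scaling by the median of ratios changed 2. The modelled intervals, the lack of replicates and the copies of H3f3a and H3f3b limit what these values can show.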
